A study of Mus musculus with 311 samples.

Results

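Pdia4, Pdia3 and Derl3 are genes of protein folding and quality control in the endoplasmic reticulum (ER), and they make up 3 of the 11387 named genes measured across 311 mouse livers. The genes were taken by symbol, with all their probes, and each was named by 1 probe that gave a value on all 311 arrays. The livers came from F2 mice of a cross of C3H/HeJ and C57BL/6J, both inbred strains. Both parental strains carried the ApoE null background, so every animal lacked apolipoprotein E, and every animal ate a Western diet rich in fat from week 8 to week 24 of age. Both sexes were used, and the sex of a given animal is not given in the sources used here. Liver RNA of each animal (Cy3) was set against 1 common pool of RNA from all the animals (Cy5) on 1 array, so there was 1 group, no untreated control and no second array of any animal.

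Proteins that enter the ER are folded by chaperones and receive disulfide bonds from protein disulfide isomerases, and the liver, which secretes most plasma proteins, depends on both. Pdia4 and Pdia3 encode such isomerases: Pdia3 (also known as ERp57) works on glycoproteins with the lectin chaperones calnexin and calreticulin and is part of the complex that loads peptides onto class I molecules. Derl3 encodes a derlin, a membrane protein of ER-associated degradation, the route by which misfolded proteins leave the ER. When unfolded proteins build up, the unfolded protein response induces chaperone, isomerase and degradation genes through the factors ATF6 and XBP1. Antibody-secreting plasma cells hold a large ER and are also known for high Derl3 and Pdia4.

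The ATF6 and XBP1 proteins bind short promoter elements, so the 250 bases before the annotated start of each member were read from RefSeq (mouse build GRCm38.p6). The promoter of Sdf2l1, an ER cochaperone whose values followed those of Derl3 and Pdia4 closely, is shown beside them. In the 4 lines below, written in the direction of transcription, capitals mark the ER stress response element, which is CCAAT, 9 bases and CCACG on either strand.
Pdia4, chr6:47813513-47813762, minus strand: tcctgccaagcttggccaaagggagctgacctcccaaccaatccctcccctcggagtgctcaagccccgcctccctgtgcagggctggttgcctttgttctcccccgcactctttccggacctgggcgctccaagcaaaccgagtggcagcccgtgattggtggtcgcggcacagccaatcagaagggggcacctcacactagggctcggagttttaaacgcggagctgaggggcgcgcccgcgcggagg
Derl3, chr10:75893148-75893397, plus strand: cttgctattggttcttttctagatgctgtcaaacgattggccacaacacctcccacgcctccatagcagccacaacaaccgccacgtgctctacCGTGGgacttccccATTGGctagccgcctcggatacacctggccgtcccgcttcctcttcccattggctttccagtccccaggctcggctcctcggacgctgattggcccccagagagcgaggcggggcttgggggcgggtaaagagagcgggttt
Sdf2l1, chr16:17132384-17132633, minus strand: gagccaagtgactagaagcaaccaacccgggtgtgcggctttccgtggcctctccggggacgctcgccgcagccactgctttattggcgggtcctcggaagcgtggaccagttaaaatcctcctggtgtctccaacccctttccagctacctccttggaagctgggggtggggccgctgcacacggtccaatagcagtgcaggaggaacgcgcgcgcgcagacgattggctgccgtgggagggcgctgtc
Pdia3, chr2:121413652-121413901, plus strand: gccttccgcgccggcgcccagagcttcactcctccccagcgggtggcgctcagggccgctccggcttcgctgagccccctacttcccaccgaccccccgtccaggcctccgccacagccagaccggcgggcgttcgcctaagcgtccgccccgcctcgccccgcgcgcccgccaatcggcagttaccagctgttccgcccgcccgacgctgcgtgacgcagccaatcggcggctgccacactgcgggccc
Only the Derl3 window of these 4 held the full element, on the opposite strand, where it reads CGTGG, 9 bases and ATTGG from -156 to -138 relative to the start. The element was present in 37 of 32851 mouse promoter windows of this length, or 0.113%. Its second part alone, CCACG on either strand, occurred 3 times in the Derl3 window, 1 of them within the full element, 3 times in the Sdf2l1 window and 0 times in the Pdia4 and Pdia3 windows, against 28.3% of all windows with at least 1. The related element ATTGG, 1 base, CCACG (0.0304% of windows) and the element TGACGTGG (0.563% of windows) occurred in none of the 4. A match is a stretch of letters and not a measured binding site.

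The values are log10 ratios of a liver to the pool, with base and direction read from the values themselves, and 0 means equal to the pool. Ratios cannot be compared as levels between genes, so the levels of the 3 genes relative to each other, and of liver markers relative to markers of other tissues, were not measured. Over all probes the array medians lay between -0.0218 and 0.0172 and the SDs of single arrays between 0.0658 and 0.206. Of 48205 pairs of arrays, 131 correlated below -0.3 and the median correlation was 0.160, which differences from a pool of the same animals can give, and the labels state the same dyes for every array. On 12 arrays, genes of pancreas or skeletal muscle stood at least 10-fold over the pool. Results are given for all arrays and for sets split by the probe of Eif2s3y, a gene of the Y chromosome: 156 arrays at or below -0.5 (low Eif2s3y) and 155 above it (high Eif2s3y). These sets are named by that probe only and were made from measured values, so the levels of the 3 genes in them are described without a test.

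Pdia4 varied least of the 3 genes. Its log10 ratio ran from a lowest value of -0.193 through a median of 0.0192 to a highest of 0.293, and 177 of 311 livers stood above the pool. Its SD over animals was 0.0908, which was 1.37 times the median SD of all 22863 probes, 0.0663. From the 5th to the 95th percentile Pdia4 spanned 1.95-fold, against 1.61-fold for the median probe, so its spread was modest. On the low Eif2s3y arrays its median was -0.0245 (lowest -0.173, highest 0.164), and on the high Eif2s3y arrays it was 0.0577 (lowest -0.193, highest 0.293), a difference of 1.21-fold. The sets overlapped: 15 low Eif2s3y arrays lay above the median of the high ones, and 26 high Eif2s3y arrays lay below the median of the low ones.

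Pdia3 varied more widely, and its livers fell into clusters that touched. The log10 ratio ran from -0.630 through a median of -0.195 to 0.376, with an SD of 0.207 (3.13 times that of the median probe) and a span of 4.74-fold between the 5th and 95th percentiles. Most livers stood below the pool, and 78 of 311 stood above it. A mixture of 2 normal distributions described Pdia3 better than 1 normal or 1 Student t distribution, by a difference in the Bayesian information criterion (BIC) of 25.3, while 1.78% of all probes (408 of 22863) were called mixtures by the same rule. The lower component had a mean of -0.249 (SD 0.133) and a weight of 0.755, and the upper one a mean of 0.133 (SD 0.0997) and a weight of 0.245. Assigned to the more likely component, 232 livers formed the lower cluster and 79 the upper cluster, with the nearest values on either side at -0.00327 and -0.000268. The mixture was also called within the low Eif2s3y arrays (BIC difference 13.9) and within the high Eif2s3y arrays (12.4). The upper cluster held 35 of 156 low Eif2s3y arrays and 44 of 155 high ones. The medians of Pdia3 in these sets were -0.237 and -0.148, and they overlapped broadly, with 50 low Eif2s3y arrays above the median of the high ones.

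Derl3 varied most. Its log10 ratio ran from -0.842 through a median of -0.125 to 0.686, and 112 of 311 livers stood above the pool. The SD of 0.315 was 4.75 times that of the median probe and larger than the SD of 98.9% of probes, and the span from the 5th to the 95th percentile was 10.00-fold. The mixture was not called for Derl3 (BIC difference 2.21) or for Pdia4 (-4.27). Low Eif2s3y arrays had a Derl3 median of -0.307 (lowest -0.842, highest 0.295) and high Eif2s3y arrays one of 0.0725 (lowest -0.752, highest 0.686). The medians differed by 2.39-fold, with 9 low Eif2s3y arrays above the median of the high ones and 15 high Eif2s3y arrays below the median of the low ones. The Derl3 medians lay farther apart than those of Pdia4 or Pdia3, and Derl3 also varied within each set, with SDs of 0.213 and 0.292.

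**Figure D1:**
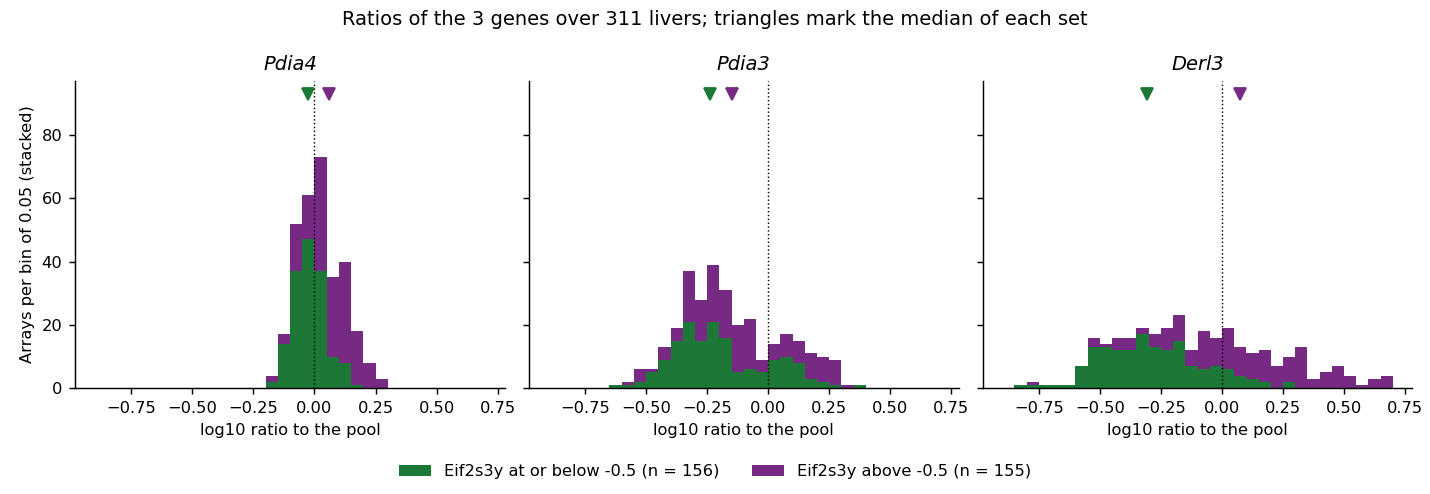
Histograms of the log10 ratio to the pool for Pdia4, Pdia3 and Derl3 over 311 livers, in bins of 0.05, with stacked bars coloured by the Eif2s3y set and triangles at the median of each set. Pdia4 is narrow, Pdia3 has a second hump above 0, and the Derl3 medians of the sets lie farthest apart, at -0.307 and 0.0725.

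The Pdia3 clusters were spread unevenly along the F2 numbers that label the animals. Of the animals numbered 121 to 180, 23 of 47 (48.9%) were in the upper cluster, while the other windows of 60 numbers held between 14.3% (8 of 56, numbers 1 to 60) and 29.6% (16 of 54, numbers 301 to 360). What the numbers stand for (litter, date or order of handling) is not given in the sources used here, and their part in the clusters was not tested. Over all arrays Pdia3 showed no linear relation with the F2 number (r = 0.0747, permutation p = 0.189, adjusted p = 0.339 over the 9 relations of the 3 genes with array measures). Of those 9, 1 had an adjusted p under 0.05, that of Pdia4 with the F2 number (r = -0.161, permutation p = 0.00489, adjusted p = 0.0440; rho = -0.151, adjusted p = 0.0707; r = -0.160 without the 2 farthest animals). Neither the spread of an array nor its number of missing values reached that threshold with any of the 3 genes.

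**Figure D2:**
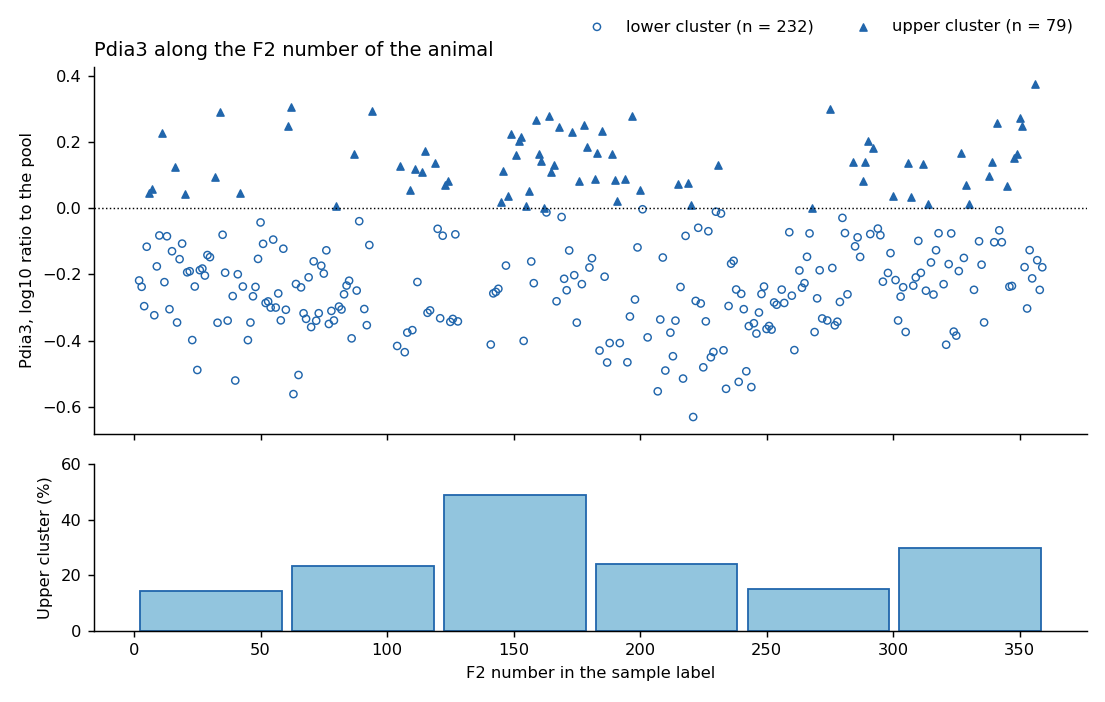
Upper panel, the log10 ratio of Pdia3 to the pool for each liver against the F2 number in its label, with filled triangles for the 79 livers of the upper cluster and open circles for the 232 of the lower one. Lower panel, the percentage of livers in the upper cluster in 6 windows of 60 numbers, highest at 48.9% for numbers 121 to 180.

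Pdia4 and Derl3 rose and fell together from liver to liver, while Pdia3 did not follow them over all arrays. For Pdia4 and Derl3 the correlation was r = 0.741 (95% confidence interval 0.686 to 0.787, n = 311; rho = 0.716; permutation p = 1e-05 for both, the smallest that 100000 permutations can give), and r was 0.729 once the 2 animals with the most extreme Pdia4 were left out. In a limma fit of every probe on Pdia4, Derl3 had an adjusted p of 4.63e-52 and the highest r of all 11386 other genes. For each doubling of Pdia4 the fitted Derl3 ratio rose 5.93-fold over all arrays, so the narrow range of Pdia4 went with a wide range of Derl3. The rise was smaller within the sets, at 3.07-fold on the low and 4.87-fold on the high Eif2s3y arrays. The relation held on the low Eif2s3y arrays (r = 0.490, n = 156, adjusted p = 3.17e-08 by limma) and on the high ones (r = 0.727, n = 155, adjusted p = 2.18e-23), as well as in all 6 windows of F2 numbers (r from 0.701 to 0.787). The slope difference between the 2 sets did not pass the interaction test after adjustment over all probes (0.663, p = 0.0241, adjusted p = 0.228 by limma, where 0.818% of probes passed). In the reverse fit, of Pdia4 on Derl3, the difference was 0.0832 (p = 0.00339, adjusted p = 0.164 by limma). The 95% confidence intervals of r were 0.361 to 0.601 on the low and 0.6435 to 0.794 on the high arrays. The smaller r on the low Eif2s3y arrays is thus not shown to be a different relation, nor shown to be the same one. Without the 12 arrays that carried pancreas or muscle signal r was 0.737.

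Pdia3 gave larger correlations with the other members within its own clusters than over all livers. With Pdia4 the pooled correlation was r = -0.0165 (95% confidence interval -0.128 to 0.0949, rho = -0.00167, permutation p = 0.772; adjusted p = 0.833 by limma). Within the lower Pdia3 cluster it was r = 0.279 (n = 232, adjusted p = 9.70e-05) and within the upper one r = 0.380 (n = 79, adjusted p = 0.00488), both by limma. Pdia4 itself had a median of 0.0284 in the lower Pdia3 cluster and -0.0319 in the upper one, so livers with high Pdia3 had lower Pdia4 at the median. On the low Eif2s3y arrays the correlation over both clusters was negative (r = -0.223, n = 156, adjusted p = 0.0229 by limma; rho = -0.156, permutation p = 0.0515), and on the high ones it was r = -0.0636 (adjusted p = 0.642). The 121 low Eif2s3y arrays of the lower cluster gave r = 0.138 (permutation p = 0.133), and the 111 high ones of that cluster gave r = 0.251 (permutation p = 0.00785). The clusters were defined from Pdia3 itself, after its values were seen.

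Pdia3 and Derl3 showed the same pattern with a weak pooled relation. Over all arrays r was 0.227 (95% confidence interval 0.119 to 0.330, rho = 0.250, permutation p = 6e-05; adjusted p = 2.26e-04 by limma), and r was 0.222 without the 2 farthest animals. The value was 0.0558 on the low Eif2s3y arrays (adjusted p = 0.631) and 0.207 on the high ones (adjusted p = 0.0325). The slope difference did not pass the interaction test (p = 0.106, adjusted p = 0.751 by limma, where 0.00875% of probes passed). Within the lower Pdia3 cluster r was 0.360 (adjusted p = 3.90e-07 by limma) and within the upper cluster 0.513 (adjusted p = 1.41e-04). The low Eif2s3y arrays of the lower cluster gave r = 0.237 (permutation p = 0.00877) and the high ones r = 0.342 (permutation p = 2.2e-04). The upper cluster was not split by Eif2s3y set. The median of Derl3 was nearly alike in the clusters, at -0.124 and -0.165.

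**Figure D3:**
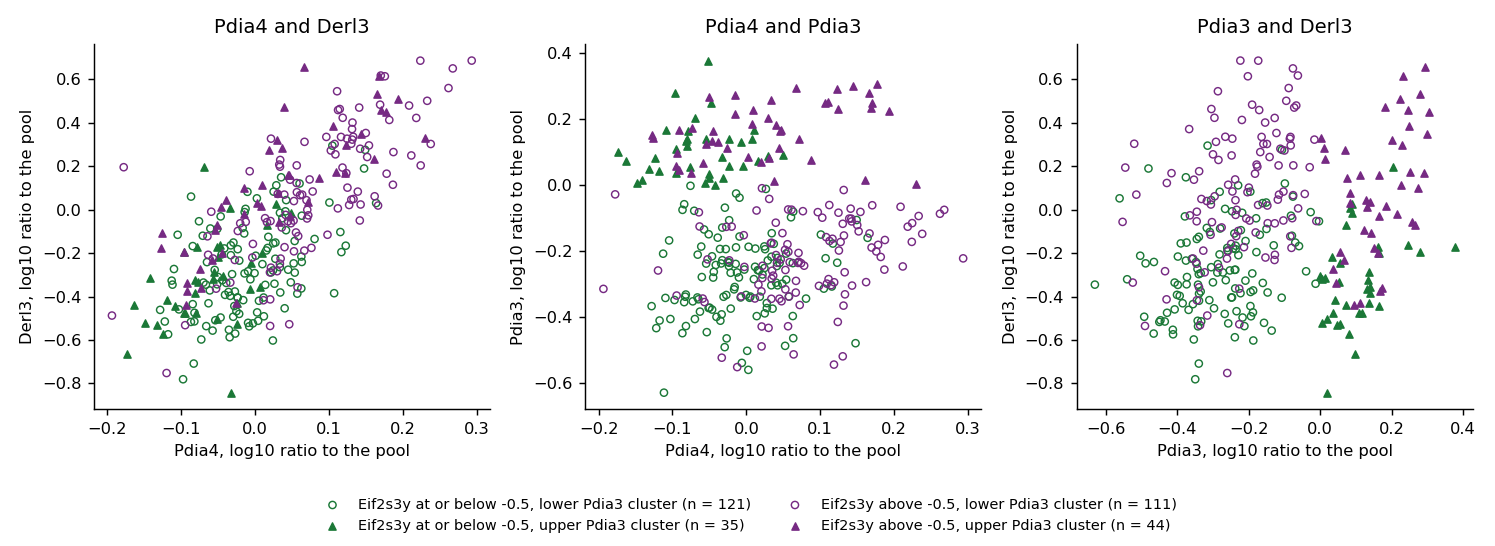
Scatter plots of the log10 ratios to the pool of each pair of members over 311 livers, coloured by Eif2s3y set, with open circles for the lower and filled triangles for the upper Pdia3 cluster. Derl3 climbs with Pdia4 in each Eif2s3y set (r = 0.490 and 0.727) and in each Pdia3 cluster (0.743 and 0.810). In the Pdia4 and Pdia3 panel the clusters, which were cut on Pdia3 itself, adjoin and overlap in Pdia4. The Pdia4 median is -0.0319 in the upper and 0.0284 in the lower cluster.

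A further probe on the array is named PDIA4 in capitals, with a gene identifier absent from the mouse table, and it was not counted as a member. It tracked the Pdia4 probe weakly (r = 0.241, rho = 0.271, permutation p = 2e-05, n = 311), with r = 0.116 on the low and 0.145 on the high Eif2s3y arrays, neither past the threshold by limma (adjusted p = 0.284 and 0.205). Its correlation with Derl3 was 0.315 and with Pdia3 -0.000368. Whether it measures a mouse Pdia4 transcript was not tested, and no member had a second mouse probe with which its own could be compared.

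Wide co-variation was the background for every count that follows. In the limma fits on Pdia4, 23.5% of probes rose and 24.4% fell with the gene at an adjusted p under 0.05. With Pdia3, 23.6% rose and 21.6% fell, and with Derl3, 20.8% rose and 22.1% fell. The median r over all genes was near 0 for each member (-0.00291 for Pdia4, -0.00783 for Pdia3 and -0.0102 for Derl3). A gene is said to rise or fall with a member where its slope was positive or negative at that threshold, and its r is over all 311 arrays unless a set is named. Each count of 0 for a list over all arrays was also 0 at an unadjusted p under 0.05, apart from 1 degradation gene that fell with Derl3 there. The lists of genes below were chosen with earlier results of these data known, and their counts are descriptions. In a whole liver, fewer cells of a type and less RNA per cell cannot be told apart.

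Of the 12 genes that followed Pdia4 most closely, 5 were in the lists of ER genes: Derl3, Sdf2l1, Surf4, Sec23b and Hsp90b1. After Derl3 came Sdf2l1 (r = 0.721), an ER cochaperone, and Cad (0.713), the enzyme that starts pyrimidine synthesis. Next were Ubfd1 (0.681), the cargo receptor gene Surf4 (0.654), the vesicle coat gene Sec23b (0.648), the spermidine synthase gene Srm (0.643) and Hsp90b1 (0.635), the ER form of the HSP90 chaperone. The list of 12 closed with Slc39a7, Pcbp1, Morf4l2 and the proteasome subunit gene Psmd4, each at 0.602. The lowest correlations were those of Asah1 (-0.648), which encodes acid ceramidase, and of Abcg3 (-0.600), Tox (-0.576), Naip2 (-0.564), Slc16a7 (-0.564) and Cyp39a1 (-0.560). Of the 12 highest genes, 9 were also among the 12 highest on the high Eif2s3y arrays but 1 on the low ones. There the leaders, named after their values were seen, were Calr (0.589), Taf10 (0.579) and Ddost (0.546). Both sets gave r of at least 0.3 for 189 genes, against 877 over all arrays.

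Among the 12 genes closest to Derl3, 5 were named above for Pdia4: Sdf2l1, Cad (0.690), Hsp90b1 (0.635), Srm (0.629) and Sec23b (0.624). Sdf2l1 led with r = 0.798 (adjusted p = 1.53e-66 by limma), and it was first on the low (0.523) and on the high Eif2s3y arrays (0.782) too. Beside Pdia4, the others were the aldehyde oxidase gene Aox3 (0.686), the oxysterol hydroxylase gene Cyp7b1 (0.652), Ces3a (0.639) and Ces4a (0.626) of the carboxylesterases and the pseudogene Serpina4-ps1 (0.635), with Erc1 (0.641). Within the Eif2s3y sets Cyp7b1 gave 0.138 on the low and 0.448 on the high arrays, and Ces4a gave 0.0841 and 0.490. Hsp90b1 gave 0.342 and 0.645. In the fit on Derl3, 0.337% of probes passed the interaction test by limma, and neither Sdf2l1 (adjusted p = 0.256) nor Hsp90b1 (adjusted p = 0.165) did. Genes opposite to Derl3 were Slc22a27 (-0.674) and Slc22a29 (-0.617), of an organic anion transporter family, the peroxisomal genes Hao2 (-0.623) and Abcd2 (-0.608), the thioesterase gene Acot3 (-0.613) and Sun1 (-0.612). Abcd2 was at -0.0100 on the low Eif2s3y arrays. Over all arrays 840 genes had r of at least 0.3 with Derl3, and 19 did in both Eif2s3y sets.

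Over all arrays Pdia3 kept other company, with higher correlations that were alike in both Eif2s3y sets. Its closest genes were Sh3d19 (r = 0.858), Midn (0.836), Zc3h7b (0.828), the vesicle tethering gene Trappc3 (0.823), the splicing factor gene Prpf19 (0.818), the ubiquitin ligase gene Arih2 (0.809) and Apob (0.806), which encodes the protein of very low density lipoprotein. Mcoln1, Gigyf2, Rraga, Epha1 and Fbxw2 followed, between 0.801 and 0.791. Of these 12 genes, 11 were among the 12 highest on the low Eif2s3y arrays and 10 on the high ones, and they lay on 11 chromosomes. None of the 12 was in the lists of ER genes. The largest of these lists held 17 of the 11387 genes, so a count of 0 by itself says little. Within the Pdia3 clusters the values were smaller, and Sh3d19 gave 0.568 and 0.539 while Apob gave 0.532 and 0.545. Of the 12 genes, 5 were among the 12 highest in the lower cluster and 3 in the upper one. The ER cochaperone gene Sdf2l1 was among the 12 highest with Pdia3 in both clusters, at 0.549 and 0.642. The genes opposite to Pdia3 were Sin3b (-0.655), Mink1 (-0.651), Git1 (-0.646), Ciz1 (-0.629), Cnot3 (-0.612) and Tln1 (-0.611). In both Eif2s3y sets 501 genes had r of at least 0.3 with Pdia3, of 639 over all arrays.

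**Figure D4:**
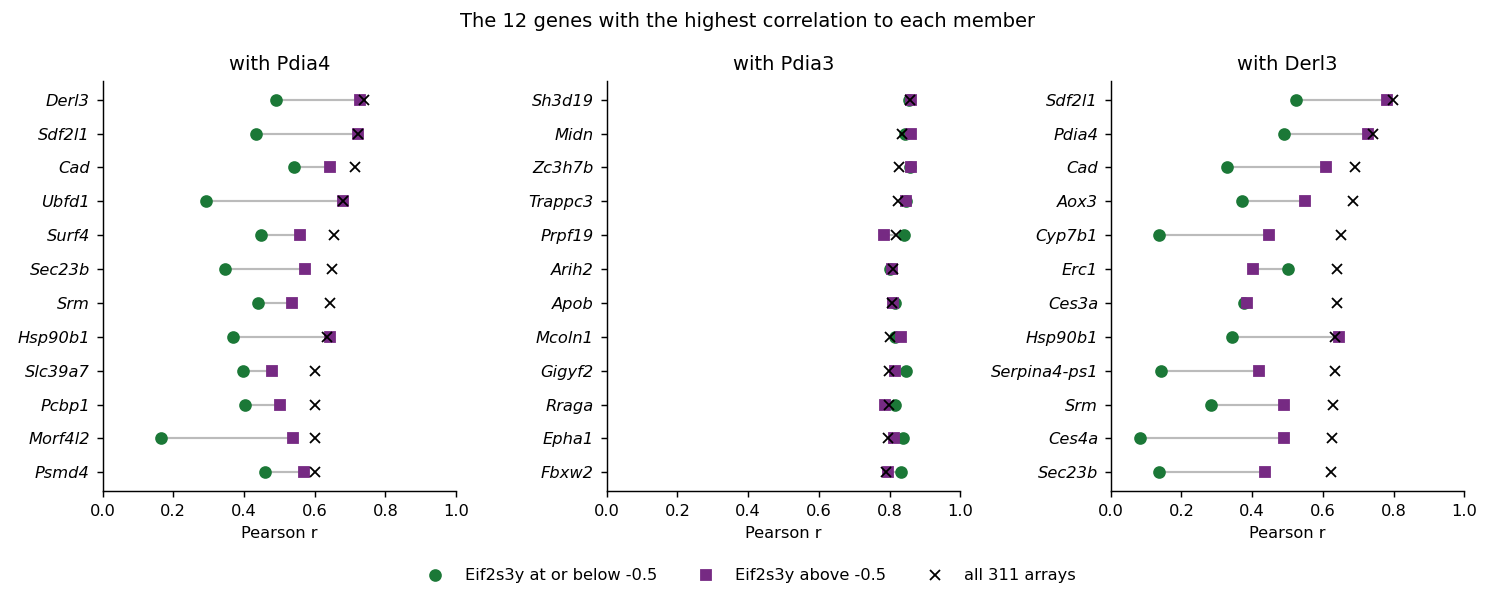
Pearson r of the 12 genes with the highest correlation to Pdia4, Pdia3 and Derl3, with a cross for all 311 arrays, a circle for the 156 low and a square for the 155 high Eif2s3y arrays. For Derl3 the cross lies beyond both sets for most genes, while the Pdia3 genes stay between 0.783 and 0.862 in both.

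Of 9 other genes of the PDI family tested, 2 rose with Pdia4: Txndc5 (r = 0.453, adjusted p = 2.10e-15 by limma) and Pdia5 (0.379). With Pdia3, 5 of 9 rose, led by the transmembrane isomerase gene Tmx4 (0.442) and Dnajc10 (0.342), and 0 fell with either. With Derl3, 5 of 10 rose and 0 fell, with Txndc5 (0.367) and Pdia5 (0.364) after Pdia4. P4hb, which encodes the founding isomerase of the family, gave -0.0242 with Pdia4 and -0.00831 with Pdia3, with adjusted p of 0.754 and 0.919 by limma. Of the 5 genes tested of the ER oxidation list, 4 rose and 1 fell with Pdia3, and 1 rose and 2 fell with Pdia4 and with Derl3. Qsox1 followed Pdia3 far more closely than any other of them (r = 0.768, and 0.768 and 0.794 in the Eif2s3y sets), and its r with Pdia4 was -0.0590. Gpx7 fell with Pdia3 (-0.354). Within the lower and upper Pdia3 clusters Qsox1 gave 0.434 and 0.618 with Pdia3.

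Chaperones of the ER mostly rose with the members. Of 17 tested, 11 rose and 3 fell with Pdia4, with a median r of 0.246. With Derl3, 11 rose and 1 fell (median 0.216), and with Pdia3, 10 rose and 1 fell (median 0.207). Hsp90b1, Dnajc3, the calnexin gene Canx, Sdf2l1, Hspa13 and Ppib rose with all 3, where Ppib was named after its values were seen. Sdf2l1 gave r = 0.398 with Pdia3 (adjusted p = 5.03e-12 by limma). Hyou1, a chaperone of the HSP70 class, rose with Pdia4 (r = 0.365) and Derl3 (0.274) and gave 0.0707 with Pdia3 (adjusted p = 0.316 by limma). Dnajb11, a cochaperone gene, passed with none of the 3. Dnajb9 rose with Pdia3 (0.310) and gave -0.114 with Pdia4 and -0.00732 with Derl3 (adjusted p = 0.0857 and 0.936 by limma). On the low Eif2s3y arrays the chaperones that rose numbered 6 with Pdia4, where 13.7% of all probes rose, and 3 with Derl3, where 1.56% did. The chaperone medians on the low and high Eif2s3y arrays were 0.0580 and 0.203 with Pdia4, and 0.0435 and 0.123 with Derl3. Hspa5, Creld2, Manf and Pdia6, often used as markers of the response, were not analysed here.

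The lectin chaperones with which Pdia3 is known to work gave opposite signs. Canx rose with Pdia3 (r = 0.497, adjusted p = 8.87e-19 by limma), with 0.505 and 0.464 in the lower and upper Pdia3 clusters. Calr, the calreticulin gene, fell with Pdia3 over all arrays (r = -0.280, adjusted p = 3.35e-06), but its values within the clusters were -0.0469 and 0.245. Calr rose with Pdia4 (0.599) and Derl3 (0.444).

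Genes of ER-associated degradation rose with Pdia4 in 9 of 15 cases and fell in 1 (median r 0.406). Beside Derl3 these included Ube2j1 (0.556) and Ube2g2 (0.555), ubiquitin-conjugating enzyme genes, Sel1l (0.524), the scaffold of the ligase complex, and Derl2 (0.408), a close relative of Derl3. With Derl3, 8 of 14 rose and none fell (median 0.191), with Sel1l first at 0.611. With Pdia3, 7 rose and 3 fell (median 0.107), and Herpud2 was highest (0.527). On the low and high Eif2s3y arrays the median was 0.138 and 0.233 with Pdia4, and 0.00981 and 0.125 with Derl3, smaller than over all arrays in each case. Herpud1, a target of the response, gave -0.0388 with Pdia4 and -0.0395 with Derl3.

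The sensors and factors of the unfolded protein response all rose with Pdia4 over all arrays: 9 of 9, with a median r of 0.392. They were led by Wfs1 (0.558), Xbp1 (0.542), which encodes the response factor itself, and Ern1 (0.516), which encodes the sensor that splices the Xbp1 messenger. With Derl3, 7 of 9 rose, again with Wfs1 (0.578) and Xbp1 (0.505) first. With Pdia3, 3 rose and 3 fell, and Ern1 was among those that fell (-0.243), although it gave 0.326 within the upper cluster. Xbp1 gave 0.345 and 0.346 with Pdia4 in the Eif2s3y sets, against 0.111 and 0.246 with Derl3. The medians of the list in those sets were 0.267 and 0.223 with Pdia4, and 0.111 and 0.139 with Derl3. With Pdia4, 8 of the 9 genes had a positive r in both sets. The exception was the sensor gene Eif2ak3, named after its values were seen. Its r with Pdia4 was 0.231 over all arrays, -0.175 on the low and 0.0216 on the high Eif2s3y arrays. Splicing of Xbp1 cannot be read from 1 ratio per probe.

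The integrated stress response, a neighbouring pathway that runs through ATF4, did not move as a block. Of 10 genes, 3 rose and 1 fell with Pdia4, 4 rose and 2 fell with Derl3, and 1 rose and 3 fell with Pdia3. Atf4 gave r = 0.184 with Pdia4 (adjusted p = 0.00343 by limma), 0.0874 with Derl3 (adjusted p = 0.214) and -0.323 with Pdia3 (adjusted p = 5.57e-08). Ddit3, which encodes the factor CHOP, gave -0.0365 with Pdia4, -0.0472 with Derl3 and -0.329 with Pdia3. The highest values were those of Mthfd2 and Asns, at 0.4415 and 0.312 with Pdia4 and 0.4715 and 0.426 with Derl3. The lowest value of the list was that of Vldlr with Derl3 (-0.567). With Derl3 on the low and high Eif2s3y arrays, Mthfd2 gave 0.0640 and 0.171, Asns 0.0226 and 0.152, and Vldlr -0.0145 and -0.281. The list medians in those sets were 0.0301 and 0.0137 with Pdia4, and 0.0618 and 0.0493 with Derl3.

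Steps before and after folding followed Pdia4 and Derl3 as well. In protein translocation and N-glycosylation, 12 of 15 genes rose and 0 fell with either, with medians of 0.371 and 0.286. On the low and high Eif2s3y arrays the medians were 0.126 and 0.232 with Pdia4, and 0.0810 and 0.223 with Derl3. Ddost, a subunit of the oligosaccharyltransferase, led with Pdia4 (0.586) and Sec11a of the signal peptidase with Derl3 (0.592). In transport from the ER to the Golgi, 9 of 14 rose and 2 fell with Pdia4, and 8 rose and none fell with Derl3. The transport medians, 0.253 and 0.230 over all arrays, were 0.0476 and 0.170 within the sets with Pdia4, and 0.0496 and 0.109 with Derl3. With Pdia3, 9 of 15 translocation and glycosylation genes rose and 2 fell, and 7 of 14 transport genes rose and 1 fell, with Sec23a (0.544) and Tmed2 (0.513) highest.

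Class I peptide loading, in which Pdia3 takes part, divided the members. With Pdia3, 4 of 8 genes rose and 1 fell (median r 0.145): Tap2 (0.392), B2m (0.332), H2-K1 (0.244) and Tap1 (0.174) rose, and Tapbp, the gene of tapasin, fell (-0.135, adjusted p = 0.0400 by limma). With Pdia4 and with Derl3 none rose and 5 fell (medians -0.187 and -0.188). Within the low and high Eif2s3y sets the medians with Derl3 were 0.0477 and -0.000582. With Pdia4 they were -0.0137 and -0.0796, and with Pdia3 0.1135 and 0.2631.

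Of the 11 plasma cell genes tested, of a list of 24, more fell than rose with each member over all arrays. Jchain, Mzb1, Cd38, Igkc, Igha and the Ighg genes of the list, often used as plasma cell markers, were not analysed here. With Derl3, 2 rose and 4 fell (median r -0.109), with Pdia4, 1 rose and 4 fell (-0.0878), and with Pdia3, 1 rose and 4 fell (-0.0613). The immunoglobulin heavy chain probe named Igh rose with Derl3 (r = 0.278, adjusted p = 4.42e-06 by limma) and Pdia4 (0.274), but gave -0.182 and 0.194 with Derl3 in the low and high Eif2s3y sets. Ell2 rose with Pdia3 (r = 0.505, adjusted p = 1.04e-19 by limma), with 0.448 and 0.512 in those sets. It also rose with Derl3 (0.156, adjusted p = 0.0161 by limma), with 0.0362 and -0.0470 in the sets, and gave -0.0662 with Pdia4. Ighm, the heavy chain of immunoglobulin M, gave -0.0259 with Derl3 and 0.00052 with Pdia4 (adjusted p = 0.754 and 0.995). Prdm1, a factor that directs plasma cell formation, fell with Derl3 (-0.430), as did Eaf2 (-0.427), Sdc1 (-0.394) and the coactivator gene Pou2af1 (-0.237). On the low and high Eif2s3y arrays Prdm1 gave 0.0721 and 0.0613 and Sdc1 gave -0.0368 on the high arrays and a value above 0 on the low ones. Eaf2 gave -0.262 and -0.280 there, and Pou2af1 gave -0.135 and -0.149. Irf4 gave -0.0655 (adjusted p = 0.374). Within the Eif2s3y sets the list medians with Derl3 were -0.00422 and -0.0470, and 0 of the 11 genes rose with Derl3 in either, where 1.56% and 5.02% of all probes rose, so a count of 0 is near the share of all probes. The mean log10 ratio over the list ranged from -0.0408 to 0.157 on the low arrays (median 0.0215) and from -0.105 to 0.206 on the high ones (median -0.0232), and these ranges overlapped.

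Of 10 B cell genes, 4 rose and 4 fell with Pdia4, 2 rose and 4 fell with Derl3, and none rose and 4 fell with Pdia3, where Cd22 was lowest (-0.513). Cd79a, a chain of the B cell receptor, gave -0.0038 with Derl3 and 0.130 with Pdia4. All 13 macrophage genes tested fell with Derl3 (median r -0.339), 12 of 13 with Pdia4 (-0.293) and 11 of 13 with Pdia3 (-0.284). With Derl3 the macrophage median was 0.0326 on the low and -0.187 on the high Eif2s3y arrays. In these sets it was -0.0414 and -0.0758 with Pdia4, and -0.167 and -0.265 with Pdia3. The mean log10 ratio of the list had medians of 0.0345 and -0.103 there. The part of macrophage number in the Derl3 values was not tested.

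**Figure D5:**
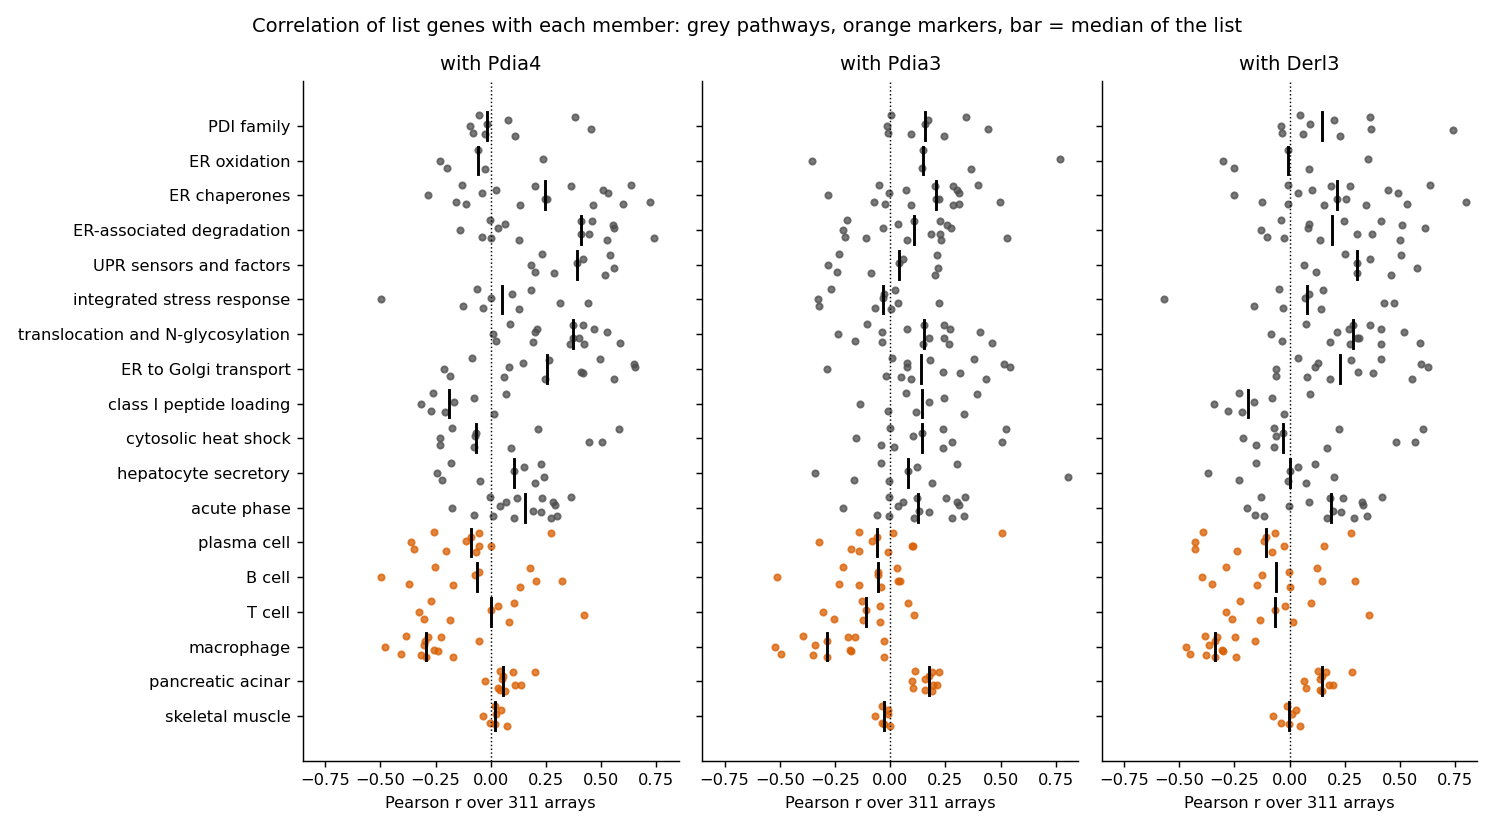
Pearson r over 311 arrays of each gene of 12 pathway lists (grey) and 6 marker lists (orange) with Pdia4, Pdia3 and Derl3, where a dot is a gene, the black bar the median of the list and the vertical spread within a row has no meaning. The lists of folding, degradation, translocation and unfolded protein response lie to the right for Pdia4 and Derl3, and the macrophage genes lie to the left for all 3.

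Genes of the exocrine pancreas, another secretory tissue, differed by large amounts between these livers, and the mean log10 ratio of the list ran from -1.27 to 1.06. Of 11 pancreatic acinar genes, 8 rose with Derl3 (median r 0.145), 8 with Pdia3 (0.175) and 2 with Pdia4 (0.0547), all with r of at most 0.284. Without the 12 arrays of pancreas or muscle signal the correlation of Pdia3 and Derl3 was 0.213 (adjusted p = 8.13e-04 by limma). None of 7 muscle genes passed with any member. Of 16 acute phase genes, 10 rose and 3 fell with Derl3, and 8 rose and 1 fell with Pdia4 and with Pdia3. The acute phase medians were 0.188 with Derl3, 0.157 with Pdia4 and 0.126 with Pdia3. On the low and high Eif2s3y arrays they were 0.155 and 0.155 with Derl3, 0.220 and 0.109 with Pdia4, and 0.115 and 0.168 with Pdia3. Of the 16 genes, 12 had a positive r in both sets with Derl3, 14 with Pdia4 and 13 with Pdia3. Among hepatocyte secretory genes, 4 of 9 rose and 3 fell with Pdia4, and 1 rose and 3 fell with Derl3. Cytosolic heat shock genes were divided too, with 5 of 11 up and 2 down with Derl3, where Hspb1 (0.605) and Hsph1 (0.566) led, 4 up and 3 down with Pdia4, and 6 up and 1 down with Pdia3. T cell genes numbered 1 up and 4 down of 9 with Pdia4 and with Derl3, and 0 up and 2 down with Pdia3.

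The 3 genes lie on chromosomes 6, 2 and 10, and their neighbours in the RefSeq gene order were counted. Of 10 neighbours each, 4 rose and 1 fell with Pdia4, 2 rose and 1 fell with Pdia3, and 2 rose and 3 fell with Derl3, where between 20.8% and 24.4% of all probes did so in each direction. Beside Derl3, the glutathione transferase genes Gstt3 (r = -0.574), Gstt2 (-0.547) and Gstt1 (-0.338) ran opposite to it, and all 3 passed by limma (largest adjusted p 1.04e-08). The values were smaller within the Eif2s3y sets, with -0.382 and -0.150 for Gstt3 and -0.138 and -0.309 for Gstt2. Smarcb1, the next gene on the other side, gave 0.219. Near Pdia4 the highest was Zfp777 (0.296), and near Pdia3 it was Eif3j1 (0.203), with Ckmt1 at -0.188.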

How the data were processed

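Liver RNA of 311 F2 animals was hybridised with a common pool, and the samples form 1 group. The deposited table holds 1 log10 ratio per probe and array, per the labels against the pool. The normalization, the base and the sign are not given in the sources used here. Base and direction (liver over pool) were read from the values: over probes, the mean ratio fell with the variance at a slope of -1.42, where a pool of all samples requires -1.15 for log10, -0.347 for log2 and -0.5 for natural logs. Of 23388 probes, 13645 name 1 gene, 48 several and 9695 none. 22863 probes with values on at least 95% of arrays were tested, and 0.745% of values were missing. Arrays carry no counts, so their number limits the precision. Nothing says the animals were sampled more than once, and p-values measure the spread between these samples.

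Every probe was regressed on each member with limma 3.58.1 (R 4.3.3; lmFit, eBayes), with Benjamini-Hochberg adjustment over all probes and a threshold of 0.05, and with an interaction term for the Eif2s3y sets. For a gene with several probes the one with fewest missing values was used. A mixture was called at a BIC margin of 10 or more, when the smaller component weighed 0.1 or more and Ashman D reached 2. On simulated data, limma called 26 of 50 probes planted at a correlation of 0.2 with Pdia4, 49 of 50 at 0.3 and 8 of 22663 unplanted ones. Permutation tests were two-sided with 100000 resamples. Genes named in the text were drawn from the 12 highest and 6 lowest correlates of each member, the 3 highest and 1 lowest of each list, 5 measured neighbours on each side and a set of ER stress and plasma cell genes. Not every gene of the lists or neighbours so drawn is named, so the named genes are not the full extremes of each list. The members and lists were chosen with earlier results of these data known. RefSeq promoter windows (250 bases before the start; the bases after it were not used) were searched on both strands.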

Additional observations from a re-analysis of the deposited data

How the results depend on the processing

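The correlation of Pdia4 with Derl3 stayed positive and past the threshold under all 14 alternatives (r from 0.490 to 0.810). That of Pdia4 with Pdia3 (-0.0165) was past it at -0.223 on the low Eif2s3y arrays and reversed to 0.279 and 0.380 within the Pdia3 clusters, an alternative chosen after seeing the data. Pdia3 with Derl3 (0.227) no longer passed on arrays with F2 numbers up to the median (0.179) or low Eif2s3y arrays (0.0558). Probes called with Pdia4 were 6857 for F2 numbers above the median, 6113 and 4001 on low and high Eif2s3y arrays, and 6407 among probes on every array. With Pdia3 they were 6086 among probes on every array, and 7565 and 7067 on low and high Eif2s3y arrays. With Derl3 they were 7804 for F2 numbers up to the median and 5702 above it, and 983 and 2046 on low and high arrays. Also with Derl3 they were 5926 among probes on every array and 3251 with the Eif2s3y set as covariate. Fewer arrays or probes entered in each of these except with the covariate. The cause of the changes was not tested. ER chaperones that rose fell in number to 6 with Pdia4 and 3 with Derl3 on low arrays, and to 7 with Derl3 on high ones. Plasma cell genes that rose numbered 0 with Pdia4 (1 in the text) on high arrays and with the most variable probe of each gene. With Pdia3 (1) they numbered 2 on low arrays, on high arrays and with the covariate, and 0 among probes on every array. With Derl3 (2) they were 1 for F2 numbers up to the median, probes on every array and the most variable probe, and 0 on low arrays, on high arrays and with the covariate. At an unadjusted p under 0.05 by limma the counts of 0 became 1 with Pdia4 on high arrays and 1 with Derl3 on low and on high arrays, and the others stayed 0. The counts of probes called were not run with the most variable probe, which uses the same fit. As multiples of the median probe, spreads ranged from 1.04 to 1.55 for Pdia4, 3.09 to 3.54 for Pdia3 and 3.44 to 5.66 for Derl3, and Pdia3 was a mixture at a BIC margin of 20 too. No paired analysis was possible because there is 1 group.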
